A study of Mus musculus with 15 samples.

Results

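Immediate early response genes are transcribed within minutes of a stimulus, without the need for new protein, and their mRNAs are short-lived. Many encode transcription factors: FOS and JUN proteins pair to form the AP-1 dimer, EGR proteins are zinc finger factors, and NR4A proteins are orphan nuclear receptors. In the lung they answer to growth factors, stretch, oxidants and cytokines, and they are also known to respond to the handling of tissue before RNA is taken.

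The genes described here are the AP-1 subunits Fos, Fosb, Jun and Junb, the EGR factors Egr1, Egr2 and Egr3, the nuclear receptor Nr4a1, the nuclear protein gene Ier2 and the phosphatase gene Dusp1. They were chosen by name, as the rows of the raw count table whose Ensembl identifier has 1 of these symbols in GENCODE M21. All 10 were found among 33340 genes, and all 10 passed the filter on low counts that left 17457 genes for testing. All are protein-coding.

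Whole lungs of C57BL/6 mice were profiled by sequencing of polyadenylated RNA at day 0 and at 7, 14 and 21 days after bleomycin (BLM), an antitumour drug that breaks DNA and leaves the lung fibrotic. BLM was given into the trachea at 5 U/kg to anaesthetised male mice of 10 to 12 weeks. There were 4 libraries for day 0, 4 for day 7, 4 for day 14 and 3 for day 21 by their titles, whereas the series' design text gives 3 replicates for each time point without naming them, and no genotype other than the strain is named. Day 0 replicates 1 to 3 are labelled as having had no treatment. The libraries are labelled as separate replicates without saying that each is 1 animal, so p-values measure the spread between these libraries. The fit takes 1 estimate of each gene's spread over all days, while each member ranged more widely within day 0 than within any later day. A p-value against day 0 therefore does not measure the spread of day 0 alone.

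Several features of the libraries bear on every value given here. Total counts lay between 15652008 and 18020661 per library. Mitochondrial genes took 2.28% and 2.31% of the counts in day 0 replicates 1 and 2, but 4.22% and 4.04% in replicates 3 and 4. After BLM this share was 2.03% to 2.15% at day 7, 2.102% to 4.14% at day 14 and 2.66% to 4.01% at day 21. Day 0 replicate 4 is a control by its title, while its treatment label names BLM. It was kept in day 0, and the members' calls and the counts of the pathway lists are given with and without it. The tissue markers were those of lung, with Sftpc, the surfactant gene of alveolar type 2 cells, at 15734 to 25096 CPM (counts scaled to a common, TMM-adjusted library size) at day 0 and at 2213 to 4906 CPM at day 21. Col1a1, the collagen gene that marks fibroblasts, was at 208 to 371 CPM at day 0 and at 991 to 5084 CPM at day 14. In whole lung, fewer cells of a type and less RNA per cell cannot be told apart.

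To see what letters these genes share in front of their starts, the 250 bases upstream of RefSeq transcript starts (GRCm38.p6) were searched on both strands. Promoter entries were matched for Fos, Fosb, Jun, Junb, Egr2, Nr4a1 and Dusp1, with 11 starts in all. TGACG, the core of the cAMP response element bound by CREB and ATF proteins, lay in front of 8 of the 11 starts and of 6 of the 7 genes, all but Jun. It lay in 17.8% of all 32851 promoters of that length. The full AP-1 letters TGANTCA lay in front of none of the 7 genes and in 6.75% of all promoters. The EGR letters GCGNGGGCG were found upstream of Fosb and Nr4a1, and in 4.7% of all promoters. A CArG box, the element that serum response factor binds, was found upstream of Egr2, and in 1.47% of all promoters. A match is a description of letters and not a bound site, and no match says only that these letters are not in this window. The windows of Fos, Nr4a1 and Dusp1 are printed because they hold several copies of TGACG, and that of Egr2 because a CArG box stands beside one. Capitals mark TGACG, or CGTCA where it lies on the other strand, and the CArG box.
Fos, chr12:85473640-85473889, plus strand: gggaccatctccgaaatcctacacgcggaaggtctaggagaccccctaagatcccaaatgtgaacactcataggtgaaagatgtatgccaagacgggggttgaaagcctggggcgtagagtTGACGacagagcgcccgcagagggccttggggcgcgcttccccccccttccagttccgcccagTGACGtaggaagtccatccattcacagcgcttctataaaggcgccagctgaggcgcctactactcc
Nr4a1, chr15:101266596-101266845, plus strand: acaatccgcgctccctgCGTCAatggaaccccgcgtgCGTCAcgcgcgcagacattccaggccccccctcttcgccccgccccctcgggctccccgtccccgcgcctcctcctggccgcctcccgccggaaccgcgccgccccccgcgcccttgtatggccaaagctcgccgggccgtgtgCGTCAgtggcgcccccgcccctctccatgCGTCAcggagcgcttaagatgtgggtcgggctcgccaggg
Dusp1, chr17:26508523-26508722, minus strand: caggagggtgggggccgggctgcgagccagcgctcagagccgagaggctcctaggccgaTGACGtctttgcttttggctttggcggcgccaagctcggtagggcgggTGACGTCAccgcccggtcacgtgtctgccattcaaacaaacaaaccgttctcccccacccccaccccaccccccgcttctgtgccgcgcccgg
Egr2, chr10:67537797-67537826, plus strand: CCATATATGGgcagcgaCGTCAcgggtatt

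In Fos the copies of TGACG start 129 and 66 bases before the transcript start, and in Nr4a1 they lie at 233, 213, 69 and 40 bases. In Dusp1 a pair overlaps, at 143 and 140 bases, and reads TGACGTCA, the whole palindrome, with another copy at 191 bases. The Dusp1 window ends 51 bases before the start, and the Egr2 window is a stretch of 30 bases counted from its CArG box.

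At day 0 the control libraries were far apart for these genes. Nr4a1, an orphan nuclear receptor induced in T cells, macrophages and endothelium, had 78.0, 27.6, 338 and 798 CPM in day 0 replicates 1 to 4. Its highest day 0 value was 28.9 times its lowest. Fosb, an AP-1 subunit, had 6.67, 5.50, 58.0 and 108 CPM, a ratio of 19.6. Both genes were low in replicates 1 and 2 and high in replicates 3 and 4. Fos, the founding AP-1 subunit, had 56.0, 38.9, 89.4 and 566 CPM at day 0, a ratio of 14.5. Egr1, a zinc finger factor induced by growth factors and injury, had 49.3, 31.3, 77.8 and 383 CPM, a ratio of 12.2. For Fos and Egr1 it was replicate 4 alone that stood far above the others.

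The other members were also higher in both of replicates 3 and 4, by smaller steps. Egr3 had 3.24, 1.93, 12.8 and 11.5 CPM in replicates 1 to 4, and Egr2, a factor of myelination and of T cell tolerance, had 6.21, 4.54, 14.5 and 22.7 CPM. Dusp1, which encodes the nuclear phosphatase that switches off MAP kinases, had 290, 206, 577 and 1147 CPM. Egr3 was the only one of these 3 genes with its highest value in replicate 3. Junb had 119, 103, 135 and 389 CPM, and Ier2 had 56.8, 42.9, 83.7 and 150 CPM. Jun, the main dimer partner of Fos, moved least, with 316, 321, 329 and 569 CPM. Only replicate 4 stood apart for Jun.

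**Figure D1:**
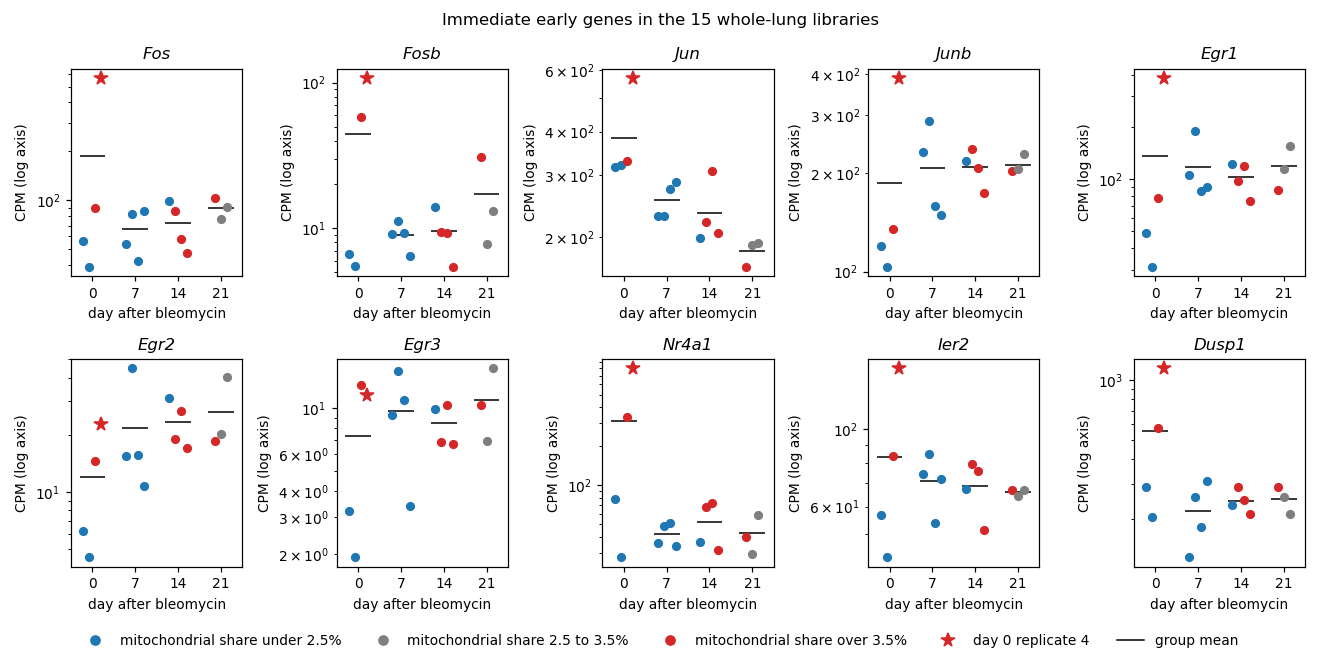
Level of each immediate early gene in the 15 whole-lung libraries, in CPM on a log axis, against the day after BLM. Points are libraries coloured by their mitochondrial share of counts, the star is day 0 replicate 4 and the line is the mean of the day. Day 0 replicate 4 is the highest of all 15 libraries in 8 of the 10 panels, the exceptions being Egr2 and Egr3.

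Counted over the members, replicates 3 and 4 were both above replicates 1 and 2 in 10 of 10 genes, against 27% of all genes tested. Replicate 4 was the highest day 0 library in 9 of 10 members, against 20.3% of all genes tested, and Egr3 was the exception. It was the highest of all 15 libraries in 8 of 10, against 6.97% of genes tested. On the log2 CPM scale the day 0 range of Nr4a1 was 4.85 and exceeded that of 99.9% of genes tested, whereas the range of Jun was 0.85 and exceeded that of 72.6%. The other 8 members had day 0 ranges above those of 94.9% to 99.8% of genes tested.

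Within every later day the ratio of highest to lowest library was smaller than at day 0 for each member. Nr4a1 ranged over 1.51-fold within day 7, 2.32-fold within day 14 and 1.99-fold within day 21. Fos ranged over 2.03-fold within day 7, 2.09-fold within day 14 and 1.36-fold within day 21. Ier2, a short nuclear protein of the early response, differed by 1.04-fold among the 3 day 21 libraries. Egr2 and Egr3 were the widest at day 7, where their ranges of 4.14-fold and 4.43-fold exceeded those of 96.9% and 97.3% of genes tested. At day 21 Fosb had the widest range of the members, 3.98-fold.

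At day 0 the libraries with the higher mitochondrial share were those with higher levels of the members, and at day 14 they were not. The mean log2 CPM over the 10 members was 5.41 and 4.89 in day 0 replicates 1 and 2, and 6.56 and 7.73 in replicates 3 and 4. At day 14 it was 6.02 in the library with a share of 2.102% and 5.47 to 6.05 in the 3 libraries with shares of 3.74% to 4.14%. At day 7, where every share was under 2.5%, it was 5.59 to 6.29. All 11 libraries taken after BLM lay between the 2 pairs of day 0 libraries.

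**Figure D2:**
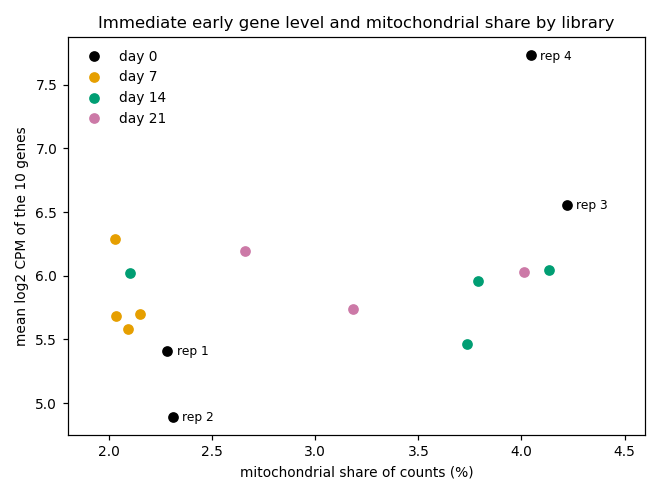
Mean log2 CPM of the 10 immediate early genes in each library against the percentage of its counts from mitochondrial genes, coloured by day. Day 0 replicates 3 and 4, at 6.56 and 7.73, lie above all others, while day 14 and day 21 libraries of a like mitochondrial share lie between 5.47 and 6.05.

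Marker genes of other cells also differed among the day 0 libraries. Of the 7 cardiac muscle markers, led by Myh6, 6 passed the filter, and all 6 were higher in both of replicates 3 and 4 than in both of replicates 1 and 2, against 27% of genes tested, and the summed level of the list was 23.7, 44.4, 284 and 193 CPM. All 5 adipocyte markers, led by Cfd, were too, with sums of 1.81, 25.3, 53.2 and 46.9 CPM. Neither list was highest in replicate 4. After BLM the highest cardiac sums were 646 CPM in day 7 replicate 4 and 758 CPM in day 21 replicate 1, where the members' mean log2 CPM was 5.59, the lowest of the day 7 libraries, and 6.03, between the other day 21 libraries. Single members differed from this mean. Fos and Dusp1 were the highest of their day in both of these libraries, and Junb and Egr2 the lowest. Fosb was the lowest of its day in the day 7 library and the highest in the day 21 library. The summed endothelial markers, led by Pecam1, were 3466, 3016, 3236 and 3545 CPM at day 0, and the monocyte and neutrophil markers, led by S100a9, were 721, 955, 632 and 426 CPM. Of the other lists, the same held for 4 of 8 endothelial, 3 of 6 alveolar type 2 (led by Sftpc), 2 of 7 alveolar macrophage (Chil3), 2 of 6 smooth muscle (Acta2), 2 of 4 skeletal muscle (Tnnt3) and 1 of 7 fibroblast markers, and for none of the alveolar type 1 (Ager), monocyte and neutrophil, lymphocyte (Cd79a) and red blood cell (Hbb-bs) markers. In the other direction, both of replicates 3 and 4 were below both of replicates 1 and 2 for 4 of 6 alveolar type 1, 3 of 5 red blood cell, 3 of 7 monocyte and neutrophil, 2 of 6 alveolar type 2 and 2 of 7 fibroblast markers, against 27.9% of genes tested. The same was seen in 1 gene each of the endothelial, smooth muscle, alveolar macrophage and lymphocyte lists, and in none of the cardiac, adipocyte and skeletal muscle lists. The part of other cells in the spread of the members was not tested.

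The first comparison asked how the early response genes stood 1 week after BLM. At day 7, 4 of the 10 members were lower than at day 0 and none was higher, by edgeR's quasi-likelihood test. A gene passed if its adjusted p was under 0.05 and it differed by more than 1.5-fold. Of all genes tested, 7.36% were lower and 8.78% higher by this rule, 16.1% in all. The 4 were Nr4a1, Fosb, Jun and Dusp1, and DESeq2 called the same 4, against 15.6% of the genes it tested. With limma voom none of the 10 passed, against 15.5% of genes changed, and 3 had an unadjusted p under 0.05. Which members passed depended on the day 0 libraries used, and those values follow the comparisons.

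Among the AP-1 subunits, Fosb was at 9.18, 11.2, 9.34 and 6.48 CPM in the day 7 libraries. These values lay between the low and the high pair of day 0, except that replicate 4 fell inside the low pair. Its mean fell from 44.5 ± 48.7 CPM (SD, n = 4) at day 0 to 9.04 ± 1.93 CPM at day 7, a log2 fold change of -2.30 ± 0.73 (SE, edgeR adjusted p = 0.032). Jun was at 230, 229, 275 and 288 CPM at day 7, and all 4 libraries lay below the lowest day 0 library. The log2 fold change of Jun was -0.59 ± 0.19 (edgeR adjusted p = 0.0339). Of all genes tested, 13.2% had every day 7 library below every day 0 library. Fos was at 54.0, 82.9, 42.6 and 86.4 CPM, within the range of day 0. Its log2 fold change of -1.50 ± 0.63 did not pass (edgeR adjusted p = 0.0911). Junb was at 231, 288, 158 and 149 CPM, above day 0 replicates 1 to 3 and below replicate 4, and its log2 fold change was 0.15 ± 0.34 (edgeR adjusted p = 0.784).

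The EGR factors did not pass at day 7. Egr1 was at 105, 189, 85.4 and 90.7 CPM, all above day 0 replicates 1 to 3 and all below replicate 4, with a log2 fold change of -0.20 ± 0.57 (edgeR adjusted p = 0.824). Egr2 was at 15.4, 44.8, 15.7 and 10.8 CPM, and 1 of the 4 libraries was above all of day 0. Its log2 fold change was 0.85 ± 0.49 (edgeR adjusted p = 0.219). Egr3 was at 9.29, 15.01, 10.9 and 3.39 CPM, and its log2 fold change was 0.38 ± 0.51 (edgeR adjusted p = 0.616).

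Nr4a1 had the largest fitted fall of the members. It was at 35.7, 48.1, 50.9 and 33.6 CPM in the day 7 libraries, between day 0 replicate 2 and day 0 replicate 1. Its mean fell from 310 ± 353 CPM (SD, n = 4) to 42.1 ± 8.69 CPM, 7.38-fold lower in the fit, with a log2 fold change of -2.88 ± 0.71 (edgeR adjusted p = 0.00894). Dusp1 was at 128, 259, 183 and 312 CPM, and 2 of the 4 libraries lay below the lowest day 0 library. The log2 fold change of Dusp1 was -1.33 ± 0.41 (edgeR adjusted p = 0.0268). Ier2 was at 74.3, 84.9, 53.7 and 72.2 CPM, with a log2 fold change of -0.22 ± 0.28 (edgeR adjusted p = 0.594).

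At day 14 the same 4 members were lower and none was higher, against 11.2% of genes tested lower, 12% higher and 23.1% changed in all. DESeq2 called the same 4, against 20.4% of genes, while limma voom called 1, Jun, against 22.8%. Nr4a1 was at 36.5, 67.7, 72.7 and 31.3 CPM, and its log2 fold change was -2.58 ± 0.70 (edgeR adjusted p = 0.0106). Fosb was at 14.0, 9.50, 9.27 and 5.43 CPM, with a log2 fold change of -2.22 ± 0.73 (edgeR adjusted p = 0.0287). For both genes no more than 1 of the 4 libraries lay below all of day 0. Jun was at 199, 220, 309 and 206 CPM, below all of day 0 in 4 of 4 libraries, as were 14.4% of genes tested, with a log2 fold change of -0.72 ± 0.19 (edgeR adjusted p = 0.00914). Dusp1 was at 236, 291, 249 and 212 CPM, and its log2 fold change was -1.17 ± 0.40 (edgeR adjusted p = 0.0366). None of the 4 Dusp1 values was below day 0 replicate 2.

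The other members did not pass at day 14. Fos was at 98.4, 85.9, 58.1 and 47.1 CPM, with a log2 fold change of -1.37 ± 0.63 (edgeR adjusted p = 0.104). Junb was at 217, 236, 207 and 173 CPM, above day 0 replicates 1 to 3. Egr1 was at 122, 97.6, 119 and 74.7 CPM and Ier2 at 51.5 to 79.4 CPM. Egr2 was at 31.1, 18.9, 26.7 and 17.1 CPM, with a log2 fold change of 0.96 ± 0.49 (edgeR adjusted p = 0.147), and 2 of its 4 libraries were above all of day 0. Egr3 was at 6.70 to 10.4 CPM.

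At day 21, 2 members were lower and none was higher, against 10.1% of genes tested lower, 12.4% higher and 22.5% changed in all. DESeq2 called the same 2, against 20.2% of genes, while limma voom called 1, Jun, against 22.4%. Jun was at 164, 190.0 and 193 CPM, below every day 0 library in 3 of 3, as were 16% of genes tested. Its mean fell from 384 ± 123 CPM (SD, n = 4) at day 0 to 182 ± 15.8 CPM (n = 3), 2.11-fold lower in the fit, with a log2 fold change of -1.07 ± 0.21 (edgeR adjusted p = 0.00141). Nr4a1 was at 39.8, 29.4 and 58.6 CPM, within the low pair of day 0, with a log2 fold change of -2.87 ± 0.79 (edgeR adjusted p = 0.0132). Fosb was at 30.9, 7.75 and 13.1 CPM and no longer passed, with a log2 fold change of -1.37 ± 0.78 (edgeR adjusted p = 0.201). Dusp1 was at 291, 259 and 211 CPM, with a log2 fold change of -1.13 ± 0.44 (edgeR adjusted p = 0.0672). Fos, at 104, 76.5 and 90.4 CPM, had a log2 fold change of -1.06 ± 0.68 (edgeR adjusted p = 0.264).

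Egr2 was at 18.5, 20.1 and 40.5 CPM at day 21, and its log2 fold change of 1.13 ± 0.52 was the only one above 1 among the members in this fit (edgeR adjusted p = 0.116). Egr1 was at 86.3, 115 and 156 CPM, Egr3 at 10.4, 6.95 and 15.5 CPM, and Junb at 202, 205 and 228 CPM. For Junb and Egr1 all 3 libraries were above day 0 replicates 1 to 3 and below replicate 4. None of these passed the test.

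Markers of several cell types also moved after BLM, in the same fit with all 4 day 0 libraries. Their counts stand against 7.36%, 11.2% and 10.1% of genes tested lower at days 7, 14 and 21, and 8.78%, 12% and 12.4% higher. Of 7 monocyte and neutrophil markers, 4 were lower at day 7, 2 at day 14 and 4 at day 21, and their summed level was 426 to 955 CPM at day 0, 242 to 330.3 CPM at day 7, 216 to 520.1 CPM at day 14 and 148 to 194 CPM at day 21. Of 5 red blood cell markers, 3, 5 and 5 were lower at the 3 days, and the sum was 1302 to 4352 CPM at day 0, 498 to 1389 CPM at day 7, 646 to 1708 CPM at day 14 and 398 to 703 CPM at day 21. Of 8 endothelial markers, 3, 3 and 1 were lower, with sums of 3016 to 3545, 2095 to 2759, 1627 to 2821 and 2139 to 2614 CPM at days 0, 7, 14 and 21. With 1 library left out, 2 to 5 endothelial markers changed at day 14 and 0 to 4 at day 21. Of 7 fibroblast markers, 4 were higher at each of the 3 days, and 1 was lower at day 14 and at day 21, with sums of 1370 to 2048 CPM at day 0 and 3622 to 13159 CPM later. None of the 6 alveolar type 2 markers was lower at day 7, while 3 were at day 14 and 6 at day 21, or 4 at day 21 without day 0 replicate 4. Of 7 lymphocyte markers, 4 were lower at day 14 and 4 at day 21, and of 5 adipocyte markers, 4 and 3 were. Leaving out 1 library gave 2 to 5 lymphocyte markers changed at day 14 and 1 to 4 adipocyte markers at day 21. By limma voom 2 and 0 adipocyte markers passed at days 14 and 21. Of 6 smooth muscle markers, 1, 2 and 3 were higher at the 3 days and none was lower. Their sum was 270 to 367 CPM at day 0 and 538 to 638 CPM at day 7. At day 14 it was 433 to 1107 CPM and at day 21 363 to 989 CPM. Of 7 alveolar macrophage markers, 0, 2 and 1 were higher and 2, 1 and 2 lower. Of 6 alveolar type 1 markers, 1 was higher at each day, and 1, 0 and 2 were lower. Of 6 cardiac muscle markers tested, 1 was lower at day 14. Of 4 skeletal muscle markers tested, 1 was higher at day 7 and 1 at day 21. No marker of these lists was at 0 in all libraries of a day, except Myh4 of skeletal muscle at days 0 and 21. The part of these cells in the differences of the members was not tested.

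The calls against day 0 were then recomputed with the day 0 libraries parted by mitochondrial share, a split chosen after the data were seen. The pairs also part the members by level, as all 10 were lower in both of replicates 1 and 2. Against the lower pair calls are pushed up, and against the higher pair down. These calls show how far the members depend on the day 0 libraries and are no test of BLM. With day 0 replicates 1 and 2 alone, 4 members were higher at day 7 and none was lower, against 4.75% and 2.44% of genes tested. The 4 were Egr1, Egr2, Egr3 and Junb, and none of the 4 members lower with all day 0 libraries passed. Egr1 then had a log2 fold change of 1.53 ± 0.35 (edgeR adjusted p = 0.0201), Egr2 of 2.00 ± 0.56 (edgeR adjusted p = 0.0427), Egr3 of 1.89 ± 0.51 (edgeR adjusted p = 0.0396) and Junb of 0.87 ± 0.24 (edgeR adjusted p = 0.0373). Nr4a1 had a value of -0.34 ± 0.41 (edgeR adjusted p = 0.639) and Dusp1 of -0.18 ± 0.28 (edgeR adjusted p = 0.728). All day 7 libraries had a mitochondrial share under 2.5%, so this is also the comparison within libraries of low share, and fitting those 6 libraries alone gave the same 4 genes, against 7.54% of genes tested. As the same libraries are compared, that fit is not a separate check.

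The same 4 genes were higher at day 14 and day 21 when only day 0 replicates 1 and 2 were used. At day 14 the log2 fold changes were 1.34 ± 0.35 for Egr1, 2.11 ± 0.56 for Egr2, 1.69 ± 0.51 for Egr3 and 0.89 ± 0.24 for Junb, and 10.4% of genes tested were higher. At day 21 they were 1.54 ± 0.37, 2.27 ± 0.58, 2.05 ± 0.53 and 0.90 ± 0.25 in the same order, and 10% of genes tested were higher. Jun was then the only member that was lower, at day 21, with a log2 fold change of -0.83 ± 0.18 (edgeR adjusted p = 0.0061), against 8.55% of genes tested.

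With day 0 replicates 3 and 4 alone, 6 members were lower at each of the 3 days and none was higher. They were Fos, Fosb, Jun, Nr4a1, Ier2 and Dusp1, and the share of genes tested that were lower was 9.5% at day 7, 9.42% at day 14 and 9.17% at day 21. For Nr4a1 the log2 fold changes at days 7, 14 and 21 were then -3.79 ± 0.38, -3.48 ± 0.38 and -3.78 ± 0.43. Fosb had values of -3.22 ± 0.44, -3.15 ± 0.44 and -2.31 ± 0.47, and Dusp1 of -1.99 ± 0.30, -1.84 ± 0.31 and -1.81 ± 0.33. Within the libraries of a share over 3.5%, which at day 14 leaves 3 against 2, Fos, Fosb, Jun, Nr4a1 and Dusp1 were lower, against 8.87% of genes tested. The 3 EGR genes and Junb passed in neither direction against replicates 3 and 4. At day 7 Egr1 had a log2 fold change of -1.001 ± 0.47 in this setting, against 1.53 ± 0.35 with replicates 1 and 2.

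**Figure D3:**
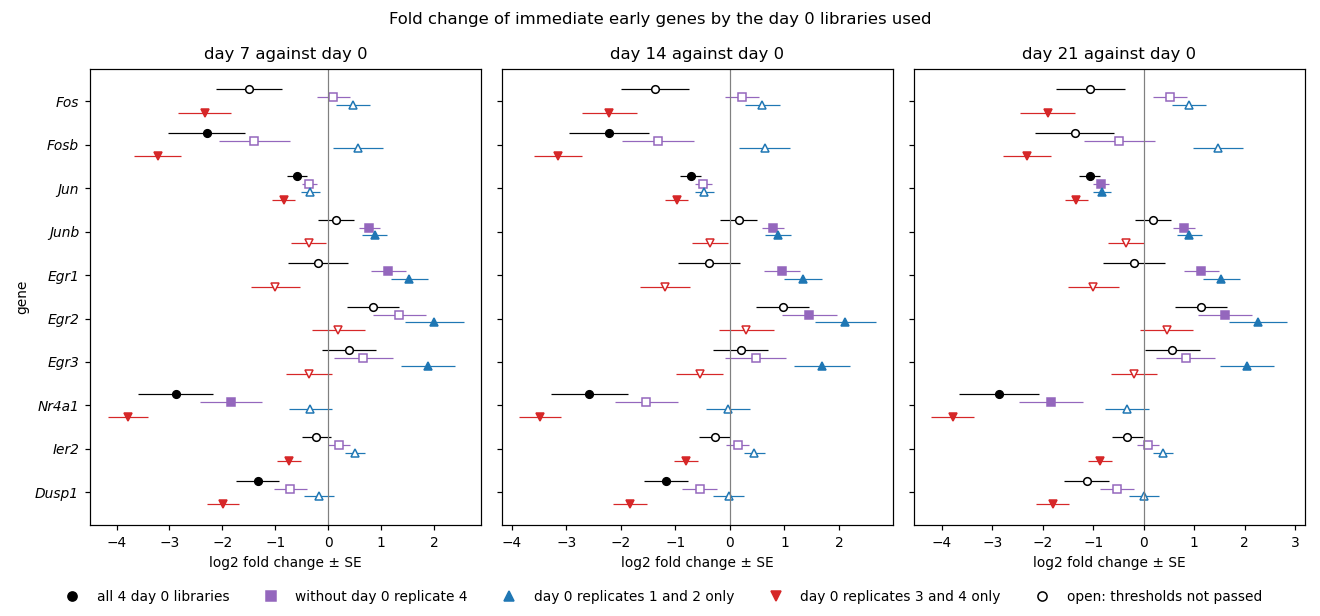
Log2 fold change ± SE of each immediate early gene at days 7, 14 and 21 against day 0, fitted with all 4 day 0 libraries (circles), without day 0 replicate 4 (squares), with replicates 1 and 2 only (triangles up) and with replicates 3 and 4 only (triangles down). Filled symbols passed both thresholds and open ones did not. At day 7 Nr4a1 runs from -3.79 to -0.34 and Egr1 from -1.001 to 1.53 with the day 0 libraries used.

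Leaving out day 0 replicate 4 alone, whose treatment label disagrees with its title, gave calls in both directions. At day 7 Egr1 and Junb were then higher, with log2 fold changes of 1.13 ± 0.33 (edgeR adjusted p = 0.0325) and 0.77 ± 0.20 (edgeR adjusted p = 0.02), and Nr4a1 was lower at -1.84 ± 0.58 (edgeR adjusted p = 0.0431). Of all genes tested, 6.82% were then higher and 5.29% lower. At day 14 Egr1, Egr2 and Junb were higher, against 10.6% of genes tested, and no member was lower, against 10.3%. Without passing, Nr4a1 was still at -1.53 ± 0.57 at day 14 (edgeR adjusted p = 0.0611), Fosb at -1.32 ± 0.66 (edgeR adjusted p = 0.157), Dusp1 at -0.56 ± 0.32 (edgeR adjusted p = 0.211) and Jun at -0.49 ± 0.15, under 1.5-fold (edgeR adjusted p = 0.0253). At day 21 the same 3 were higher, against 10.8%, and Jun and Nr4a1 were lower, against 9.89%. Fos, whose day 7 log2 fold change was -1.50 with all libraries, was at 0.09 ± 0.31 without replicate 4 (edgeR adjusted p = 0.871). Jun at day 21 was the member that was lower with every choice of day 0 libraries given here, with log2 fold changes of -1.07 with all 4, -0.85 without replicate 4, -0.83 with replicates 1 and 2 and -1.34 with replicates 3 and 4.

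With the log2 mitochondrial share as a covariate, no member passed by edgeR at day 7, where all libraries have a low share, against 7.27% of genes tested, and none had an unadjusted p under 0.05. At day 14 and at day 21, Jun, Nr4a1 and Dusp1 were lower and none was higher, against 11.7% and 10.7% of genes tested. Nr4a1 had a log2 fold change of -2.22 ± 0.61 at day 14 in this fit (edgeR adjusted p = 0.0112), and Jun one of -1.08 ± 0.19 at day 21 (edgeR adjusted p = 0.000801).

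Between the days after BLM no member passed by edgeR's test, against 6% of genes tested from day 7 to day 14, 9.54% from day 7 to day 21 and 0% from day 14 to day 21. DESeq2 and limma voom also gave 0 members in each of these comparisons, and at an unadjusted p under 0.05 the counts were 0, 1 and 0. From day 14 to day 21, DESeq2 called 101 of all genes and 1714 had an unadjusted p under 0.05. The 1 member was Jun, whose 3 day 21 libraries were below all 4 day 7 libraries, as were 13.4% of genes tested, and below all 4 day 14 libraries, as were 2.95%. Its log2 fold change from day 7 to day 21 was -0.49 ± 0.21 (edgeR adjusted p = 0.126), and from day 14 to day 21 it was -0.36 ± 0.21 (edgeR adjusted p = 0.595). The means of Jun were 384, 255, 233 and 182 CPM at days 0, 7, 14 and 21. The means of Egr2 were 12, 21.7, 23.5 and 26.4 CPM, but the neighbouring days overlapped in every case.

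Compared per kilobase of exon, which puts genes of unlike length on a common scale, Dusp1 was the highest member at day 0 with 168 ± 128 CPM per kb (SD, n = 4), followed by Jun with 120.4 ± 38.7, Nr4a1 with 88.5 ± 100.5, Junb with 81.1 ± 58.9 and Fos with 79.7 ± 107.6 CPM per kb. The lowest were Fosb with 7.12 ± 7.80, Egr2 with 3.53 ± 2.46 and Egr3 with 1.68 ± 1.27 CPM per kb. At day 21 Junb was the highest with 92.1 ± 6.17 CPM per kb (n = 3), before Dusp1 with 76.6 ± 12.2 and Jun with 57.2 ± 4.94, while Nr4a1 was at 12.1 ± 4.22 CPM per kb. Every pair of neighbours in the day 0 order overlapped in their libraries, and the order leans on replicate 4. Fos was at 240.6 CPM per kb in replicate 4 and at 16.6 to 38.0 in the other day 0 libraries. Nr4a1 was at 227.5 and at 7.88 to 96.3 CPM per kb. In replicates 1 and 2 Jun, at 99.2 and 100.8 CPM per kb, was above Dusp1, at 87.4 and 62.2. Jun overlaps the antisense gene Junos, Junb overlaps Prdx2, and Dusp1 overlaps Ergic1 and Gm8225 on the other strand. These overlaps are of whole gene spans, and overlap of exons was not checked. The library kit does not mark strand, so reads from a stretch shared by such a pair cannot be told apart.

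Likeness between members was measured within days. Taking each library's log2 CPM minus the mean of its day, all 45 pairs of members had a positive Pearson r over the 15 libraries, from 0.27 for Jun and Egr3 to 0.94 for Junb and Egr1. Without day 0 replicates 4 and 2, the 2 libraries farthest from the median of the members' mean, Junb and Egr1 were at 0.82 over 13 libraries, Egr1 and Egr2 at 0.88, Egr2 and Egr3 at 0.83 and Jun and Egr3 at -0.12. Of the 45 pairs, 41 were then positive with a median r of 0.47, and 4 were negative, those of Jun with Fosb, Junb, Egr2 and Egr3. Another 4 pairs, Fos and Jun, Fos and Egr3, Junb and Dusp1, and Egr3 and Dusp1, were at 0.0059 to 0.068. These points share libraries and are given as a description.

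The genes outside the 10 whose pattern was most like their mean, among 11810 ranked by the same measure, were Kcne4 with r = 0.948, Btg2 with 0.929, Ccn1 with 0.923, Cntln with 0.891 and Plppr2 with 0.880, over 15 libraries. Spearman's rho was 0.839, 0.732, 0.779, 0.796 and 0.711, and without the 2 farthest libraries r was 0.800, 0.713, 0.775, 0.726 and 0.718. Kcne4, a potassium channel subunit gene, had 8.80, 5.20, 16.3 and 29.0 CPM at day 0. Btg2, an antiproliferative gene of the early response, had 231, 183, 320 and 897 CPM. Ccn1, a secreted matrix protein gene of the early response, had 135, 121, 249.5 and 801 CPM. Each had its lowest day 0 value in replicate 2 and its highest in replicate 4, as did 8 of the 10 members, all but Jun and Egr3.

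Of 8 AP-1 relatives, 1 was higher at day 7, 1 at day 14 and 2 at day 21, against 8.78%, 12% and 12.4% of genes tested, and 1 was lower at day 21, against 10.1%. Counts of 1 of 8 are near these shares. Batf3, a dimer partner of JUN proteins in dendritic and T cells, was at 1.29, 1.75, 3.24 and 1.62 CPM at day 0 and at 3.86 to 6.74 CPM in all later libraries. At days 7, 14 and 21 its log2 fold changes were 1.28 ± 0.28, 1.35 ± 0.28 and 1.52 ± 0.29 (edgeR adjusted p = 0.00434, 0.00176 and 0.00123). It was higher at each of the 3 days with either pair of day 0 libraries. Jund, a JUN subunit that is expressed more steadily, was at 19.0, 19.8, 23.7 and 23.5 CPM at day 0 and at 11.6, 10.9 and 12.2 CPM at day 21, with a log2 fold change of -0.90 ± 0.15 (edgeR adjusted p = 0.000433). It was also lower at day 21 with either pair. Maff was higher at day 21 by 0.61 ± 0.20 on the log2 scale (edgeR adjusted p = 0.0284), but did not pass with day 0 replicates 3 and 4 alone, where its log2 fold change was 0.35 ± 0.23 (edgeR adjusted p = 0.288). Atf3, a stress-induced relative, was at a log2 fold change of 0.18 to 0.26 against day 0 and did not pass.

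Of the 5 EGR and NR4A relatives, Egr4 did not pass the filter on low counts. Of the 4 tested, 1, 2 and 2 were lower at days 7, 14 and 21, against 7.36%, 11.2% and 10.1% of genes tested. Nr4a2, a nuclear receptor of the Nr4a1 family, had 10.9, 14.8, 45.4 and 43.6 CPM at day 0, high in the same pair of libraries as Nr4a1, and 6.34 to 13.0 CPM in the later libraries. The log2 fold changes of Nr4a2 were -1.69 ± 0.39, -1.98 ± 0.39 and -1.73 ± 0.43 at days 7, 14 and 21 (edgeR adjusted p = 0.00598, 0.0014 and 0.00687). With day 0 replicates 1 and 2 alone it was lower only at day 14, with a log2 fold change of -0.84. Nr4a3, the other one, was lower at day 14 and day 21, with log2 fold changes of -1.45 ± 0.41 and -1.32 ± 0.45 (edgeR adjusted p = 0.0135 and 0.0376), and with day 0 replicates 1 and 2 alone it did not pass. The EGR corepressors Nab1 and Nab2 did not pass at any day.

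Of 7 other DUSP phosphatases tested, none passed at day 7 by edgeR, DESeq2 or limma voom, and 1 had an unadjusted p under 0.05. Of all genes tested, 16.1% changed at day 7 by edgeR, 15.6% by DESeq2 and 15.5% by limma voom. By edgeR 1 of the 7 changed at day 14 and 2 at day 21, near the 23.1% and 22.5% of genes tested. Dusp6, the cytoplasmic phosphatase of ERK, was at 114 to 140 CPM at day 0 and at 169 to 209 CPM in the day 21 libraries. Dusp6 was higher at day 14 by 0.62 ± 0.12 on the log2 scale (edgeR adjusted p = 0.000906) and by as much at day 21 (edgeR adjusted p = 0.00167). Dusp16 was lower at day 21, with a log2 fold change of -0.61 ± 0.18 (edgeR adjusted p = 0.018). Both kept these calls with day 0 replicates 1 and 2 alone and lost them with replicates 3 and 4 alone. There Dusp6 was at 0.58 ± 0.15 at day 14 and 0.57 ± 0.16 at day 21, just under 1.5-fold, and Dusp16 at -0.62 ± 0.23 at day 21 (edgeR adjusted p = 0.0628).

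Among 25 other early response genes, 5 were higher and 2 lower at day 7, 6 higher and 4 lower at day 14, and 5 higher and 5 lower at day 21. Over all genes tested the shares higher and lower were 8.78% and 7.36% at day 7, 12% and 11.2% at day 14, and 12.4% and 10.1% at day 21. The median log2 fold change of the list was -0.08 at day 7, -0.07 at day 14 and -0.06 at day 21, beside 0.01, 0.02 and 0.02 over all genes tested. These counts moved with the day 0 libraries. With replicates 1 and 2 alone, 3 were higher and 0 lower at day 7, 6 and 1 at day 14, and 6 and 1 at day 21, with medians of 0.25, 0.18 and 0.17, against 4.75% and 2.44%, 10.4% and 9.21%, and 10% and 8.55% of genes tested. With replicates 3 and 4 alone, 4 were higher and 8 lower at day 7, 6 and 10 at day 14, and 5 and 10 at day 21, with medians of -0.38, -0.07 and -0.32, against 8.4% and 9.5%, 9.81% and 9.42%, and 9.53% and 9.17% of genes tested. Myc, the growth and cell cycle factor, was at 9.77, 11.0, 7.17 and 9.71 CPM at day 0 and at 15.8 to 50.2 CPM in all later libraries. Over days 7, 14 and 21 the log2 fold changes of Myc were 1.38 ± 0.32, 1.58 ± 0.32 and 2.1005 ± 0.34 (edgeR adjusted p = 0.00659, 0.00167 and 0.000344). Socs3, which dampens JAK and STAT signalling, was at 48.2 to 73.9 CPM at day 0 and at 99.2 to 233 CPM later, with log2 fold changes of 1.21 ± 0.21, 1.39 ± 0.21 and 1.77 ± 0.22. Ier5l, a relative of Ier2, had log2 fold changes of 1.54 ± 0.22, 1.58 ± 0.22 and 1.72 ± 0.24. For these 3 genes no day 0 library reached any later library, as for 8.97% of genes tested, and each was higher at every day with either pair of day 0 libraries, except that Myc did not pass at day 7 with replicates 1 and 2 alone (edgeR adjusted p = 0.0936).

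Zfp36, whose product degrades AU-rich mRNAs, had 151.5, 120.5, 213 and 638 CPM at day 0 and 102 to 201 CPM later, and its log2 fold change was -1.40 ± 0.42 on day 21 (edgeR adjusted p = 0.0201). With replicates 1 and 2 alone Zfp36 passed at no day. Errfi1, a feedback inhibitor of the EGF receptor, had 332, 344, 638 and 704 CPM at day 0, with log2 fold changes of -1.41 ± 0.29 at day 14 and -1.34 ± 0.32 at day 21 (edgeR adjusted p = 0.00185 and 0.00552), and with replicates 1 and 2 alone it was lower only at day 14. Ccn2, the connective tissue growth factor gene, had 122, 110.2, 332 and 236 CPM at day 0 and 383 to 925 CPM at day 14, with a log2 fold change of 1.65 ± 0.34 (edgeR adjusted p = 0.00199). It was higher at days 14 and 21 with either pair of day 0 libraries. Ccn1, by contrast, was higher at each of the 3 days with replicates 1 and 2 alone, with log2 fold changes of 1.45, 2.12 and 1.65, and passed at none with all 4. Day 0 replicates 3 and 4 were both above replicates 1 and 2 in 16 of the 25 genes and both below in 3, against 27% and 27.9% of genes tested, and replicate 4 was the highest of all 15 libraries in 9.

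**Figure D4:**
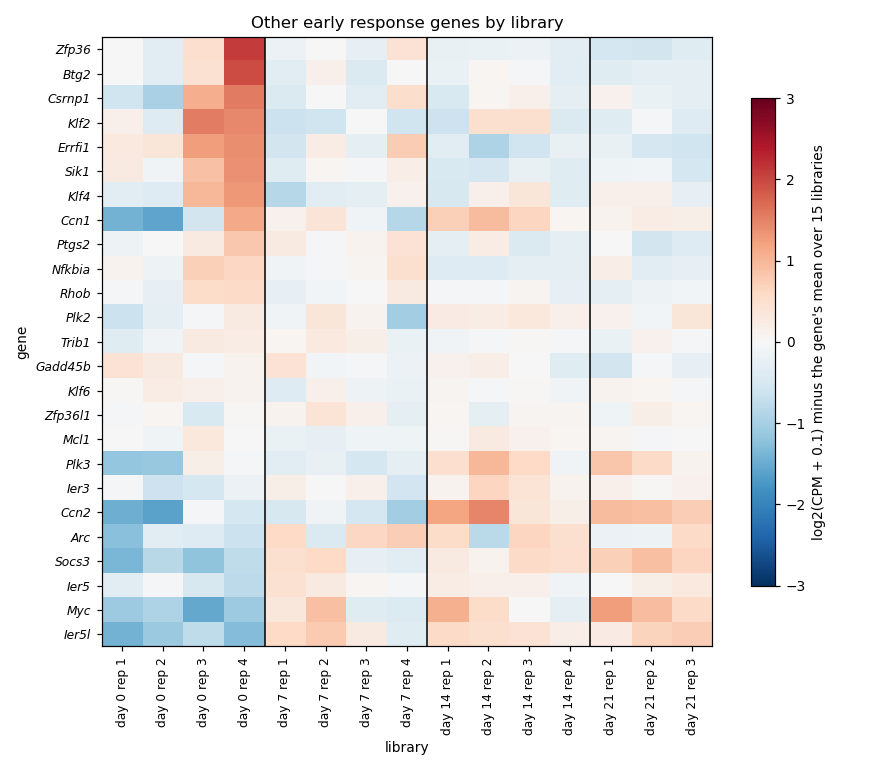
Level of 25 other early response genes in the 15 libraries, as log2(CPM + 0.1) minus the gene's mean over all libraries, with red above and blue below that mean and black lines between days. Genes are ordered by their value in day 0 replicate 4. Zfp36 and Btg2 at the top are high in that library, and Myc and Ier5l at the bottom are low in all 4 day 0 libraries.

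Among 14 upstream regulators, the kinases and factors that switch early genes on, none passed at day 7 or day 14 by edgeR, DESeq2 or limma voom, with 2 and 5 at an unadjusted p under 0.05. The counts of this paragraph stand against 16.1%, 23.1% and 22.5% of genes tested changed at days 7, 14 and 21 by edgeR. At day 21 Mrtfb, a coactivator of serum response factor, was higher with a log2 fold change of 0.69 ± 0.16 (edgeR adjusted p = 0.00489), the 1 that passed, while 6 of the 14 had an unadjusted p under 0.05. With day 0 replicates 1 and 2 alone Mrtfb was at 0.56 ± 0.16, under 1.5-fold, and did not pass. Srf itself had log2 fold changes of 0.08, 0.07 and -0.03, and Creb1 of -0.16, -0.29 and -0.33. None of 8 heat shock genes passed at any of the 3 days by edgeR or limma voom, with 1, 1 and 2 at an unadjusted p under 0.05, and DESeq2 called 1 at day 21. With day 0 replicates 3 and 4 alone 3 were higher at day 7, against 8.4% of genes tested. With replicates 1 and 2 alone 1 was lower at day 14 and 2 at day 21, against 9.21% and 8.55%. In 1 of the 8 both of day 0 replicates 3 and 4 were above replicates 1 and 2, and in 4 both were below, against 27% and 27.9% of genes tested.

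Of 12 clock and glucocorticoid response genes, 8 were higher in both of day 0 replicates 3 and 4 than in both of replicates 1 and 2, against 27% of genes tested. Another 3 were lower in both, which is close to the 27.9% of all genes. Replicate 4 was the highest day 0 library in 1 of the 12, against 9 of the 10 members and 20.3% of genes tested. Per2, a clock repressor, had 61.9, 64.7, 179 and 172.5 CPM at day 0, Dbp, a clock output factor, had 53.5, 41.3, 141 and 95.8 CPM, and Tsc22d3, a glucocorticoid target, had 363, 352, 615 and 590 CPM. The 3 that were lower were Arntl, the clock activator, at 14.1, 22.6, 3.62 and 7.20 CPM, the clock repressor Nr1d1 at 180, 223, 132 and 147 CPM, and Zbtb16, a glucocorticoid target, at 56.3, 247, 12.3 and 24.7 CPM. Against all 4 day 0 libraries 8 of the 12 were lower at day 7, 7 at day 14 and 5 at day 21, against 7.36%, 11.2% and 10.1% of genes tested, and Sgk1 was higher at day 21. With replicates 1 and 2 alone 2, 3 and 1 were lower at the 3 days, against 2.44%, 9.21% and 8.55%, and Sgk1 was higher at days 14 and 21. The median log2 fold change of the 12 was then -0.81, -0.51 and -0.32, beside -1.18, -1.26 and -0.76 with all 4. With replicates 3 and 4 alone 8 were lower at each day, against 9.5%, 9.42% and 9.17%, and none was higher. Dbp had log2 fold changes of -1.98 ± 0.52, -3.10 ± 0.55 and -2.19 ± 0.58, and Nr1d1 of -1.55 ± 0.30, -2.47 ± 0.31 and -1.78 ± 0.33. Nr1d1 was also lower at every day with day 0 replicates 1 and 2 alone. Per3, Tsc22d3, Per2 and Ciart were lower at day 7 with all 4 day 0 libraries and did not pass with replicates 1 and 2 alone. The labels give no hour of collection, and the part of the clock in the members' spread was not tested.

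Leaving out day 0 replicate 4 also moved the counts of these lists. Of all genes tested, 6.82%, 10.6% and 10.8% were then higher at days 7, 14 and 21, and 5.29%, 10.3% and 9.89% lower. Of the 25 other early response genes, 4 were higher and 0 lower at day 7, 7 and 3 at day 14, and 6 and 3 at day 21. Zfp36 was then lower only at day 21, with a log2 fold change of -0.63 ± 0.20 (edgeR adjusted p = 0.0288), and Ccn1 was higher at all 3 days. Of the clock and glucocorticoid genes, 6, 7 and 2 were lower, and the 2 at day 21 were Nr1d1 and Dbp. Among the AP-1 relatives Maff no longer passed at day 21 (edgeR adjusted p = 0.0754), while Batf3 was higher at each day, Jund was lower at day 21, and Jdp2 was lower at day 14 (log2 fold change -0.61). Nr4a2 was lower at all 3 days, and Nr4a3 only at day 14. The counts of the other DUSP phosphatases and of the upstream regulators were as with all 4 libraries, and 1 heat shock gene, Hspb1, was lower at days 14 and 21.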

How the data were processed

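Members and gene lists were chosen with earlier results of these data known. Polyadenylated RNA of 15 libraries was sequenced from kits that do not mark strand. The authors trimmed reads with TrimGalore, aligned them to mm10 with HISAT2 2.1.0, left out multi-mapped reads and deposited raw HTSeq 0.6.0 counts per Ensembl gene, without normalization. The annotation release and strand setting are not given in the sources used here. Symbols came from GENCODE M21, which named 33267 of 33340 genes.

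Counts were tested with edgeR 4.0.16 in R 4.3.3, using filterByExpr, TMM, glmQLFit and glmQLFTest over all 15 libraries with day as the only term. p-values were adjusted over 17457 genes by Benjamini-Hochberg. Changed means that the adjusted p was under 0.05 and the fold over 1.5, and SE is the log2 fold change over the root of F. The common coefficient of biological variation was 22.8%. The script was tested on simulated data. Log2 CPM used a prior count of 2. Alternatives included DESeq2 1.42.0 and limma 3.58.1.

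Named are the 10 members, up to 6 changed genes of each pathway list with the largest log2 fold change, the 5 genes most like the members with a mean of at least 5 CPM, and the highest gene of each marker list. Atf3, Nab1, Nab2, Srf, Creb1, Sgk1, Arntl, Zbtb16, Myh4, Egr4, Jdp2, Hspb1, the genes that overlap members (Junos, Prdx2, Ergic1, Gm8225) and the repeated mention of Ccn1 fall outside this rule and were chosen after their values were seen. Of the pathway and marker lists, 156 genes were matched, 4 under newer symbols. Same-numbered libraries of different days had correlated deviations of -0.24 to 0.40, so replicate numbers were not taken as pairs. No 2 replicate libraries agreed within sampling noise.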

Additional observations from a re-analysis of the deposited data

Results flagged for a closer look

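In 5 of 30 groups of 4 libraries, a group being a member on day 0, 7 or 14, the highest library stood apart from the rest by Dixon's criterion. Chance flags about 1 in 20 groups, and groups that share a library are not independent. Day 0 replicate 4 stood apart for Fos with 566 CPM, for Jun with 569 CPM, for Junb with 389 CPM and for Egr1 with 383 CPM. This is the library whose treatment label names BLM while its title names a control. Its summed fibroblast markers were 1819 CPM, beside 1370 to 2048 CPM in the other day 0 libraries and 3622 to 13159 CPM after BLM. In the same order its endothelial sum was 3545 CPM, beside 3016 to 3466 and 1627 to 2821 CPM. Its monocyte and neutrophil sum was 426 CPM, beside 632 to 955 and 148 to 520.1 CPM. Which label is right was not tested. Day 7 replicate 2 stood apart for Egr2 with 44.8 CPM, beside 10.8 to 15.7 CPM in the other libraries of that day.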

How the results depend on the processing

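No choice of tool, scaling or filter on low counts with all 4 day 0 libraries turned a called member. DESeq2 gave 4, 4 and 2 members changed at days 7, 14 and 21. The count at day 7 was 1 by glmTreat at a fold change of 1.5, 0 by limma voom (3 at an unadjusted p under 0.05) and 0 when the log2 share entered the fit. At day 14 it was 2 with the 2 groups fitted alone, 1 by glmTreat and 1 by limma voom, and at day 21 it was 1 with the 2 groups alone and 1 by limma voom. At day 21 it was 5 with day 0 replicates 1 and 2 only, and 6 with replicates 3 and 4 only. The replicate numbers do not pair the libraries, and with the replicate block the counts were 2, 2 and 1. The share of all genes changed is not given for glmTreat, the 2 groups alone, the block or most fits without 1 library. Those counts of members therefore cannot be set against other genes. Leaving out 1 library gave 1 to 5 at day 7, 2 to 5 at day 14 and 2 to 5 at day 21. The day 7 count fell to 2 when day 0 replicate 3 was left out, to 1 when day 7 replicate 1 or replicate 3 was, and to 2 when replicate 2 was. At day 14 it was 2 without day 0 replicate 3 and 2 without any of day 14 replicates 2, 3 and 4, and at day 21 it was 5 without day 0 replicate 4. Between later days every alternative gave 0 members.

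The following log2 fold changes changed sign, and the cause was not tested. Against day 0 replicates 1 and 2 only, Fos was at 0.47, 0.59 and 0.90 at days 7, 14 and 21, Fosb at 0.56, 0.63 and 1.47, Egr1 at 1.53, 1.34 and 1.54, Ier2 at 0.50, 0.44 and 0.38, and Dusp1 at 0.0068 at day 21. Within libraries of a share under 2.5% the day 7 values were the same to 2 decimals. Against replicates 3 and 4 only, Junb was at -0.37, -0.36 and -0.35 and Egr3 at -0.36, -0.56 and -0.20, and within libraries of a share over 3.5% Junb was at -0.36 and Egr3 at -0.62 at day 14. Egr1 against day 0 was at 0.28, 0.11 and 0.43 with the block, at 0.44, 0.30 and 0.49 by limma voom, and at 0.51 at day 7 and 0.029 at day 21 with the covariate, where Ier2 at day 7 was at 0.25. With the covariate, from day 7 to day 14 Fos was at -0.43, Fosb at -0.79, Junb at -0.35, Egr2 at -0.078, Nr4a1 at -0.99 and Dusp1 at -0.51, and from day 7 to day 21 Fos was at -0.20, Fosb at -0.26, Junb at -0.31, Egr1 at -0.48, Egr3 at -0.30, Nr4a1 at -1.08 and Dusp1 at -0.49. Values near 0 turned in Ier2 from day 14 to day 21 (0.013 with the block), Junb from day 7 to day 14 (-0.00023 by library totals), and, from day 7 to day 21, Nr4a1 (-0.020 by limma voom, -0.011 with no filter) and Egr1 (-0.0088 with no filter).

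Leaving out 1 library also moved values that kept their sign. Against day 0 at days 7, 14 and 21, Fosb was at -2.70 to -1.40, -2.62 to -1.32 and -2.13 to -0.48, Nr4a1 at -3.30 to -1.84, -2.99 to -1.53 and -3.29 to -1.83, Jun at -0.70 to -0.36, -0.88 to -0.49 and -1.19 to -0.85, Dusp1 at -1.63 to -0.72, -1.47 to -0.56 and -1.44 to -0.53, and Egr2 at 0.22 to 1.34, 0.66 to 1.46 and 0.64 to 1.61. For Fosb, Nr4a1, Jun and Dusp1 the value nearest 0 was the one without day 0 replicate 4. Egr3 was at 0.038 to 0.76 at day 7 and 0.18 to 0.92 at day 21.

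These log2 fold changes crossed 0 when 1 library was left out. At day 7 against day 0 Fos was at -1.87 to 0.092, Junb at -0.083 to 0.77, Egr1 at -0.56 to 1.13 and Ier2 at -0.47 to 0.20. At day 14 Fos was at -1.74 to 0.21, Junb at -0.071 to 0.78, Egr1 at -0.75 to 0.95, Egr3 at -0.15 to 0.57 and Ier2 at -0.53 to 0.14. At day 21 Fos was at -1.44 to 0.52, Junb at -0.055 to 0.80, Egr1 at -0.56 to 1.14 and Ier2 at -0.59 to 0.083. From day 7 to day 14 Fos was at -0.060 to 0.28, Fosb at -0.16 to 0.27, Junb at -0.12 to 0.22, Egr1 at -0.31 to 0.14, Egr2 at -0.11 to 0.75, Egr3 at -0.47 to 0.11, Ier2 at -0.17 to 0.059 and Dusp1 at -0.027 to 0.38. From day 7 to day 21 Junb was at -0.090 to 0.24, Egr1 at -0.26 to 0.34, Egr2 at -0.20 to 0.92, Egr3 at -0.19 to 0.48 and Nr4a1 at -0.31 to 0.20. From day 14 to day 21 Junb was at -0.053 to 0.081, Egr1 at -0.058 to 0.38, Egr2 at -0.30 to 0.36, Ier2 at -0.17 to 0.017 and Dusp1 at -0.081 to 0.14.

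By their lowest library, which was at day 0, the lowest members were Egr3 with 1.93 CPM and Egr2 with 4.54 CPM. Fosb, with 5.43 CPM in its lowest library, had the lowest mean of the members at day 7, 9.04 CPM. Day 0 rests on 4 libraries that differ by up to 28.9-fold, and the 2 pairs they form by mitochondrial share leave 2 libraries each.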
